A study of Mus musculus with 6 samples.

Results

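The Hox genes are the homeobox genes of 4 chromosomal clusters, and they are described here as read in pancreatic islets of young mice with and without Dpy30. They were taken as the protein-coding genes whose symbol is Hox, a cluster letter a to d and a paralog group number, which gave 39 of the 54119 genes in the table and of its 21806 protein-coding genes. Polyadenylated RNA was sequenced from islets of 3 Dpy30 knockout and 3 control male C57BL/6 mice at postnatal day 24, with 1 mouse per library and 100 to 200 hand-picked islets per mouse. The groups share strain, sex, age and tissue and differ in the labels by genotype alone, Dpy30 knockout or Control. Neither the Cre driver nor the deleted part of Dpy30 appears in the sources used here. The series asks what trimethylation of histone H3 at lysine 4 (H3K4me3) does while endocrine cells mature after birth, and Dpy30 is a core subunit of the complexes that place it.

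Hox proteins are transcription factors that give cells their position along the head-to-tail axis of the embryo. Within a cluster the genes lie in the order in which they act, low-numbered (anterior) genes being active nearest the head and high-numbered (posterior) genes nearest the tail, and genes of the same number in different clusters are paralogs. Trithorax-group complexes, which methylate H3K4, and Polycomb-group complexes, which methylate H3K27 and compact chromatin, are textbook keepers of the active and silent states of these clusters. In the mouse pancreas Hox genes are known from the mesenchyme around the embryonic bud, where the Hox6 paralogs are needed for endocrine differentiation.

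Estimated reads per library came to 17131515 to 23976598 in knockout islets and 24575889 to 25354384 in control islets. Across genes, libraries within a group correlated on log2 CPM at 0.959 to 0.975 (Pearson); genes are not independent replicates. Gm42418, a transcript that overlaps ribosomal RNA sequence, held 14.7% of the reads of knockout replicate 2 and 0.0990 to 0.236% of the others. As a check of the labels, transcripts that lack the 143-base exon 4 of Dpy30 (chr17:74307720-74307862, GRCm38) held 82.2, 81.0 and 80.5% of Dpy30 reads in knockout replicates 1 to 3, against 5.24, 0.438 and 3.78% in control replicates 1 to 3. Exon 4 was chosen from transcripts that lack it, since no source used here names the deleted part, so the check is not independent. The endocrine markers summed to 113939 to 162380 CPM in knockout and 244667 to 325911 CPM in control islets, so all libraries carried their labelled tissue. CPM are counts scaled to a common library total, on library sizes scaled by TMM, a normalization that sets the typical gene equal between libraries.

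Of the 39 genes, 14 were silent, here meaning 0 estimated reads in each of the 6 libraries. A count of 0 allows up to 3 reads, or 0.118 to 0.175 reads per 1e6 depending on the library, counting error only. Another 8 genes were detected, with at least 10 reads in at least 3 of the 6 libraries, and 17 lay between and are called trace. All Hox genes together held 1299 reads over the 6 libraries, and the 8 detected genes held 76.4% of them.

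Most silent genes stood in the posterior groups. In paralog groups 9 to 13, 11 of 16 genes were silent, 5 were trace and 0 were detected. Groups 6 to 8 had 1 silent and 1 detected gene of 8, and groups 2 to 5 had 0 silent and 7 detected genes of 12. At the extreme anterior end, group 1, Hoxb1 and Hoxd1 were silent. Summed over all libraries, groups 2 to 5 held 941.9 reads, groups 6 to 8 held 299.1 and groups 9 to 13 held 40.1. Groups 2 to 5 took 74.8 ± 6.17% of Hox reads in knockout and 71.5 ± 3.24% in control islets (SD, n = 3 each), and the ranges of the groups overlapped.

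**Figure D1:**
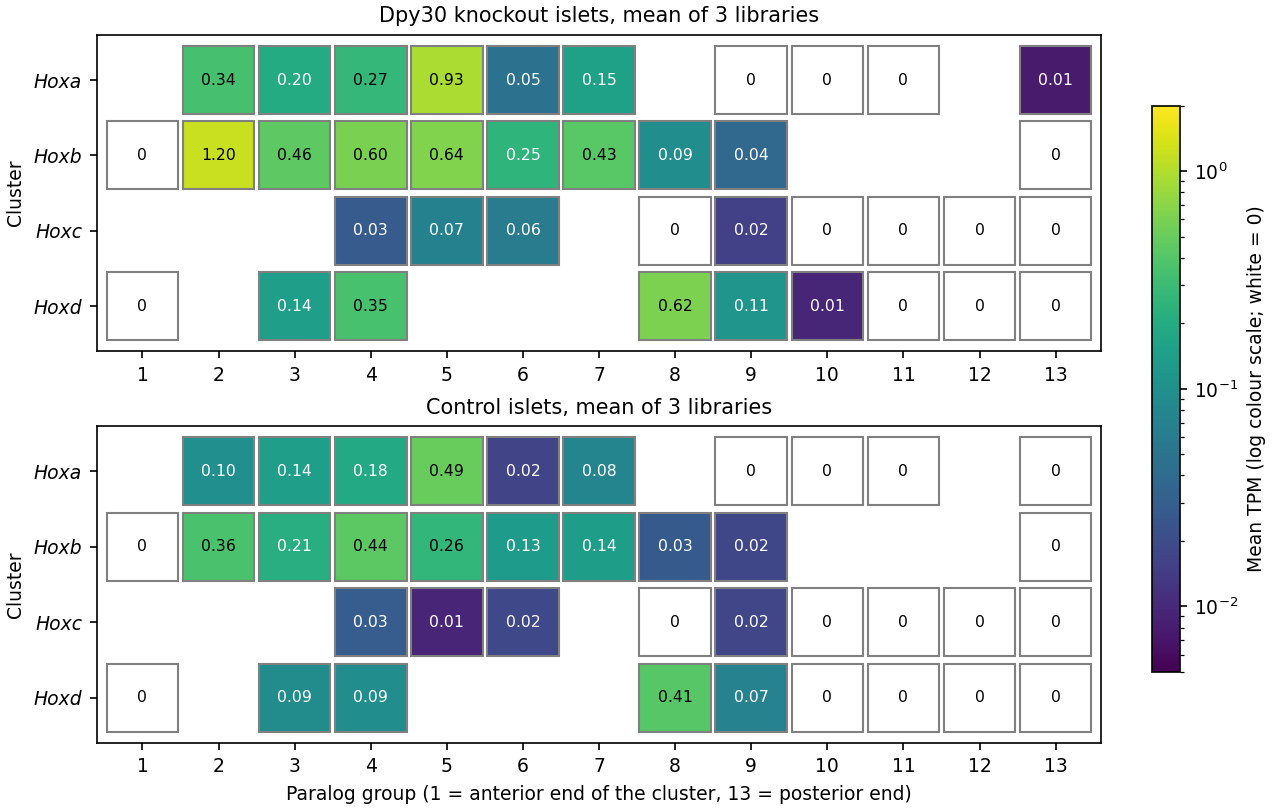
Mean TPM (a level per transcript length) of Hox genes in 3 Dpy30 knockout libraries (upper panel) and 3 control libraries (lower panel), with clusters as rows and paralog groups as columns on a log colour scale. White boxes are means of 0, and blank places are not plotted; the fullest boxes lie in groups 2 to 5 and at Hoxd8, and groups 10 to 13 hold 0 or, for Hoxa13 and Hoxd10 in knockout islets, 0.01 TPM.

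The Hoxb cluster (chr11:96194316-96368256, plus strand, GRCm38) carried the most reads, 661.8 in all. Hoxb2 to Hoxb5 were detected, Hoxb6 to Hoxb9 were trace, and Hoxb1 and Hoxb13 at its ends were silent. The Hoxa cluster (chr6:52155590-52260880, minus strand) carried 352.9 reads, with Hoxa3 and Hoxa5 detected, Hoxa2, Hoxa4, Hoxa6, Hoxa7 and Hoxa13 trace, and Hoxa9, Hoxa10 and Hoxa11 silent. The Hoxd cluster (chr2:74668310-74765142, plus strand) carried 257.3 reads, with Hoxd4 and Hoxd8 detected, Hoxd3, Hoxd9 and Hoxd10 trace, and Hoxd1, Hoxd11, Hoxd12 and Hoxd13 silent. The Hoxc cluster (chr15:102921103-103036852, plus strand) was nearly empty, with 27.1 reads in all: Hoxc4, Hoxc5, Hoxc6 and Hoxc9 were trace and Hoxc8, Hoxc10, Hoxc11, Hoxc12 and Hoxc13 were silent. In control replicate 2 every Hoxc gene was at 0 reads.

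Promoter sequences of detected and silent genes are shown because the placing of H3K4me3 in mammals follows the density of unmethylated CG dinucleotides (CpG). They come from RefSeq on GRCm38.p6 and run from 250 bases before to 50 after the transcript start, 5′ to 3′ on the gene's own strand, with every CG in capitals. Of the 39 genes, 22 matched the table, with 24 promoters. The detected Hoxa5 (chr6:52204538-52204837, minus strand) and Hoxb4 (chr11:96318017-96318316, plus strand) start where their most-read transcript does. The window of Hoxd8 (chr2:74704365-74704664, plus strand), also detected, belongs to a start 290 bases upstream of that of its most-read transcript. The silent genes shown are the anterior Hoxb1 (chr11:96365508-96365807, plus strand) and the posterior Hoxd13 (chr2:74667975-74668274, plus strand).
Hoxa5: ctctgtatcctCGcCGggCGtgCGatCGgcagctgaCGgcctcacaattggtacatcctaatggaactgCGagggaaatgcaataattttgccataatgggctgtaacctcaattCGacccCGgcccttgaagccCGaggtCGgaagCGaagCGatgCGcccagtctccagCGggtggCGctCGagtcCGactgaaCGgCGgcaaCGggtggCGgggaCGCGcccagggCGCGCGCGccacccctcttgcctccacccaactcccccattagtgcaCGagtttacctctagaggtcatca
Hoxb4: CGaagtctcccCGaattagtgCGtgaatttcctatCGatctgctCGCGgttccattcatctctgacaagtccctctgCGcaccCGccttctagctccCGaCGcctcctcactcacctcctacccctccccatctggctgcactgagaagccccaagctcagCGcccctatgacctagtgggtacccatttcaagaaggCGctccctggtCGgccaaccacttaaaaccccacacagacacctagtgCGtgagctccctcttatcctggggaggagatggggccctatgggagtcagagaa
Hoxd8: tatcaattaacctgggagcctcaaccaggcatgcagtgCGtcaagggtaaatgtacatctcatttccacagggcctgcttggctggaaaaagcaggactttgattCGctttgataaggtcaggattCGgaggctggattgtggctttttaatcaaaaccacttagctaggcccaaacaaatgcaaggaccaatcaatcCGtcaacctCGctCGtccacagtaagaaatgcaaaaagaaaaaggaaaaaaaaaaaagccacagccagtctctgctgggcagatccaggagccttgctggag
Hoxb1: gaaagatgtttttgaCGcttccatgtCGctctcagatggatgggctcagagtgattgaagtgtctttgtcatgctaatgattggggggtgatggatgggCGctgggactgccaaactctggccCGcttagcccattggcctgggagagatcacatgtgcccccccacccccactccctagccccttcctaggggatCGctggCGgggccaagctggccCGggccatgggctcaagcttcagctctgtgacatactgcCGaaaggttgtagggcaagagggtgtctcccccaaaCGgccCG
Hoxd13: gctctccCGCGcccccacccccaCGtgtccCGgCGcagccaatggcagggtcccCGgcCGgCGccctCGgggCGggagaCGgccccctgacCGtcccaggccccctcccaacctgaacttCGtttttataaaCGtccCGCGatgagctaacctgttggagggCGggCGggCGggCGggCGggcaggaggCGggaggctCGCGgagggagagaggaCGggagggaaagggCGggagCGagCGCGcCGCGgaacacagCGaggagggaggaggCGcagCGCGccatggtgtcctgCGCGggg

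These windows hold 29 CG in Hoxa5, 14 in Hoxb4, 6 in Hoxd8, 10 in Hoxb1 and 37 in Hoxd13. The silent Hoxd13 is thus denser in CG than each of the 3 detected genes shown. Over all that matched, detected genes had a median of 14 CG (range 4 to 29, 5 promoters), trace genes 20 (9 to 45, 9 promoters) and silent genes 14 (4 to 37, 10 promoters). The 20088 promoters of protein-coding genes had a median of 14, with quartiles of 4 and 25. The ranges of CG number in detected and silent genes thus overlapped, with the same median. The silent set is limited, since only 8 of its genes matched, and Hoxb13 and all silent Hoxc genes did not. Hoxa10 and Hoxd11 entered it with more than a single promoter. The detected set is limited too, since Hoxb2, Hoxb3 and Hoxb5 had no match. Its lowest window, that of Hoxd4 with 4 CG, belongs to a start 5096 bases upstream of that of the most-read transcript. Among trace genes the windows of Hoxd3 and Hoxa7 lay 33729 and 1068 bases upstream of that start. The motif TGATNNAT, a Pbx-Hox type of site, was found on either strand in 4 of the 24 Hox promoters, or 16.7%, against 7.12% of protein-coding promoters. The 4 were those of Hoxb1, Hoxa2, Hoxb8 and the downstream start of Hoxd11; a match is a description and not a bound site.

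Levels of the detected genes were low on a scale that corrects for transcript length. Averaged over the 6 libraries, Hoxb2 stood at 0.782 TPM, Hoxa5 at 0.712, Hoxb4 at 0.522, Hoxd8 at 0.513, Hoxb5 at 0.451, Hoxb3 at 0.335, Hoxd4 at 0.220 and Hoxa3 at 0.169 TPM. Each neighbouring pair in this order overlapped in its ranges over libraries, so the order of neighbours is within the spread. Along the Hoxb cluster mean TPM was highest at Hoxb2 in knockout islets (1.20 TPM) and at Hoxb4 in control islets (0.440 TPM). Toward the posterior end, Hoxb8 averaged 0.0938 TPM in knockout and 0.0267 TPM in control islets, and Hoxb9 averaged 0.0371 TPM in knockout and 0.0178 TPM in control islets. TPM are not scaled by TMM, so they can differ between the groups where CPM do not.

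**Figure D2:**
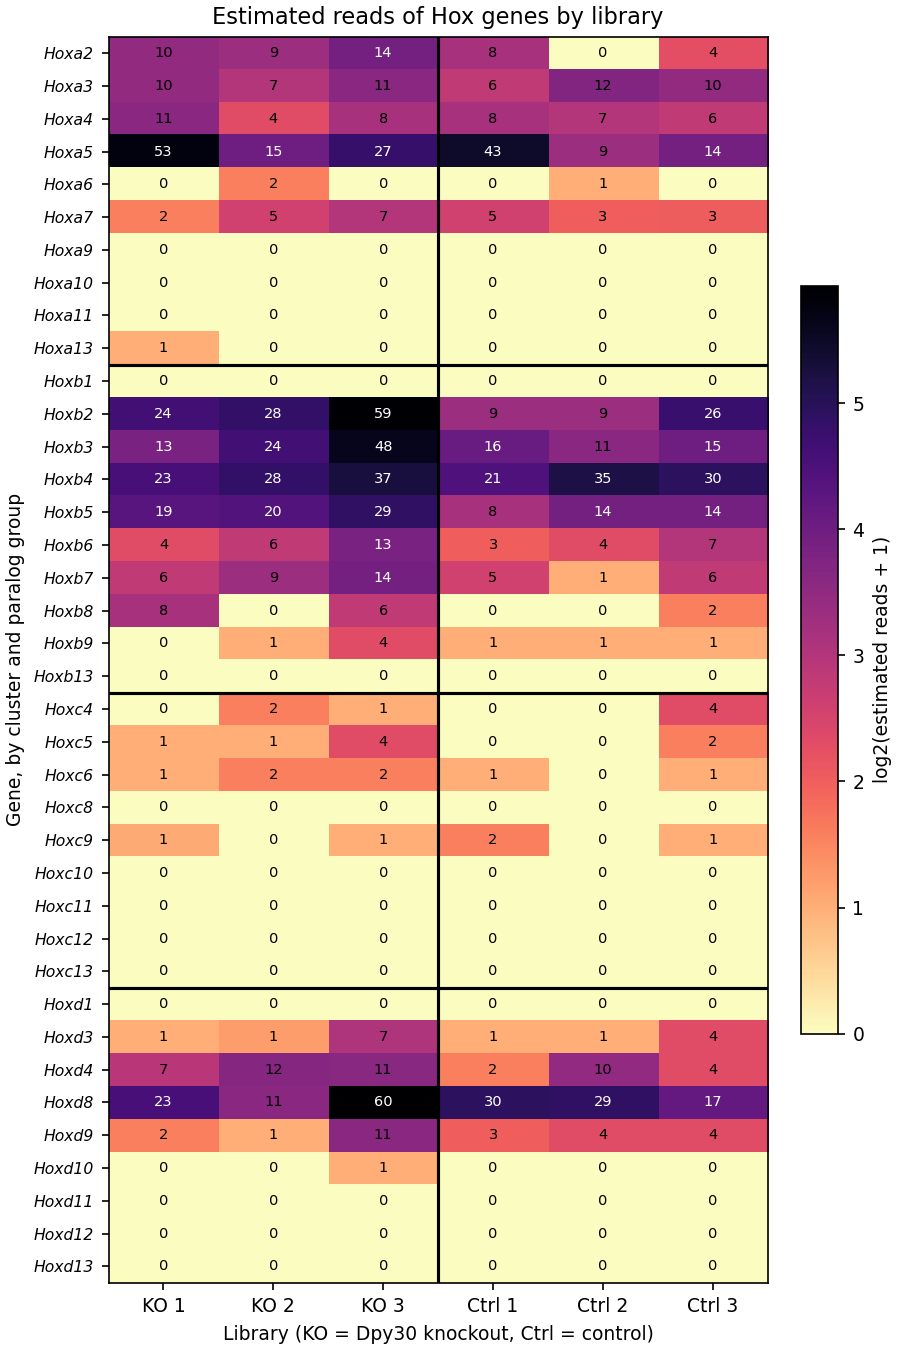
Estimated reads of Hox genes (rows, by cluster and paralog group) in the 3 knockout and 3 control libraries (columns), rounded to whole reads and coloured on a log2(reads + 1) scale. The highest cells are Hoxd8 and Hoxb2 in knockout replicate 3, with 60 and 59 reads, and the 14 rows of zeros are the silent genes.

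Hoxb2, which patterns the hindbrain in the embryo, had 24, 28 and 59 reads in knockout replicates 1 to 3 and 9, 9 and 26 reads in control replicates 1 to 3. The groups overlapped, since control replicate 3 lay above knockout replicate 1, and replicate 3 was the highest library of each group. In CPM, Hoxb2 averaged 1.65 ± 0.636 in knockout and 0.610 ± 0.396 in control islets (SD, n = 3 each). Hoxb3, its neighbour with roles in the hindbrain and the pharyngeal glands, had 13, 24.0 and 48.0 reads in knockout and 16.0, 11 and 15 reads in control islets. Control values of Hoxb3 were close together and knockout values were spread, with knockout replicate 1 inside the control range, at 1.28 ± 0.673 CPM in knockout and 0.586 ± 0.100 CPM in control islets. Nearly all of its reads, 99.2%, were assigned to the long transcript that starts at base 96323326, downstream of Hoxb4 and far upstream of the short Hoxb3 transcript, whose estimate was 0.

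Hoxb4, best known from blood stem cells, had 23, 28 and 36.9 reads in knockout and 21, 35 and 29.9 reads in control islets. It was one of 3 genes, with Hoxb3 and Hoxd8, that reached 10 reads in every library, and its groups overlapped at 1.36 ± 0.422 CPM in knockout and 1.21 ± 0.316 CPM in control islets. Hoxb5, which acts in enteric neuron precursors and in vessels of the embryo, had 19, 20 and 29 reads in knockout and 8, 14 and 14 reads in control islets. The lowest knockout library of Hoxb5 was above the highest control library, with 1.04 ± 0.253 CPM in knockout and 0.504 ± 0.148 CPM in control islets.

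Hoxa5, a regulator of lung and diaphragm development, had 53, 15 and 27 reads in knockout and 43, 9 and 14 reads in control islets. Replicate 1 was the highest library of each group and set most of its spread, at 1.36 ± 0.663 CPM in knockout and 0.919 ± 0.764 CPM in control islets. Hoxa3, required for thymus and parathyroid, had 10, 7 and 11 reads in knockout and 6, 12 and 10 reads in control islets, or 0.419 ± 0.020 CPM in knockout and 0.393 ± 0.134 CPM in control islets. Its reads fell on the long protein-coding transcript in all but 1 read. The Hoxa3 groups overlapped fully.

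Hoxd8, a gene of the middle of its cluster expressed in the trunk of the embryo, had 23, 11 and 60 reads in knockout and 30, 29 and 17 reads in control islets. A single library, knockout replicate 3, stood above the other 5, so the mean of 1.29 ± 0.844 CPM in knockout against 1.07 ± 0.319 CPM in control islets rests on it. Hoxd4, a hindbrain and neck gene, had 6.51, 11.6 and 11.2 reads in knockout and 2, 10.2 and 4 reads in control islets. It averaged 0.484 ± 0.245 CPM in knockout and 0.226 ± 0.182 CPM in control islets, with overlapping groups, and it fell under the filter for testing. Its short protein-coding transcript had 6.51, 7.15 and 7.88 reads in knockout libraries and was estimated at 0 in all control libraries, while the longer one had 0, 4.48 and 0 reads in knockout and 0, 10.2 and 4 in control libraries. The rest lay in a processed transcript that shares exonic bases with Hoxd3, with 0, 0 and 3.35 reads in knockout and 2, 0 and 0 in control libraries. At these counts the division of reads between the transcripts is an estimate with no replicate check of its own.

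**Figure D3:**
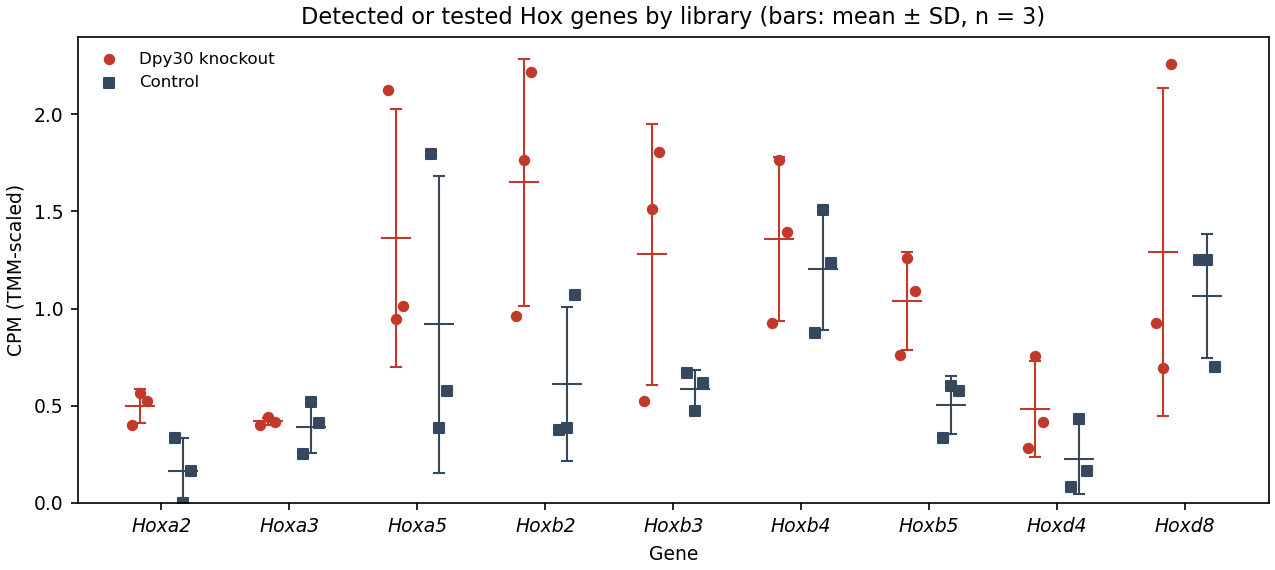
CPM of the 8 detected Hox genes and of Hoxa2 in each library, knockout (circles) left of control (squares), with bars at the mean ± SD (n = 3). Hoxa2 and Hoxb5 are the genes whose knockout and control points do not overlap, and the single high points of Hoxd8 (2.26 CPM, knockout replicate 3) and Hoxa5 (2.13 CPM in knockout replicate 1 and 1.79 CPM in control replicate 1) stand apart from their groups.

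Among the trace genes the sums over 6 libraries ran from 1 read to the 44.8 reads of Hoxa2, and the highest single library held 14 reads. Hoxa2, the gene of the second pharyngeal arch, had 10, 9 and 14 reads in knockout and 8, 0 and 3.82 reads in control islets, or 0.498 ± 0.086 CPM in knockout and 0.166 ± 0.167 CPM in control islets. It reached 10 reads in 2 libraries, both knockout, and missed the definition of detected by 1 library. Hoxa4 had 11, 4 and 8 reads in knockout and 8, 7 and 6 reads in control islets. The groups of Hoxa4 overlapped, with knockout libraries more spread.

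Hoxb7 had 6, 9 and 14 reads in knockout and 5, 1 and 6 reads in control islets. Of the Hox6 paralogs, Hoxb6 had 4, 6 and 12.99 reads in knockout and 2.98, 4 and 7 reads in control islets. Hoxa6 had 0, 2 and 0 reads in knockout and 0, 1 and 0 reads in control islets, and Hoxc6 had 1, 2 and 2 reads in knockout and 1, 0 and 1 reads in control islets. Of the Hox6 genes, Hoxb6 was therefore the one read in every library.

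Hoxb8 had 8, 0 and 6 reads in knockout and 0, 0 and 2 reads in control islets. Hoxd9 had 2, 1 and 11 reads in knockout and 3, 4 and 4 reads in control islets, its 11 reads again in knockout replicate 3. Of the remaining trace genes, Hoxa7, Hoxb9, Hoxc4, Hoxc5, Hoxc9 and Hoxd3, each held at most 25.1 reads in all. Hoxa13 and Hoxd10 were each seen as 1 read in 1 knockout library, and they were the 2 genes with reads in knockout and in no control library, while 0 genes showed the reverse. A single read does not separate a library from a count of 0. Thus 11 of 16 posterior genes stayed at 0 in both genotypes, and the other 5 held 40.1 reads over all libraries, 7.69 ± 8.13 in knockout and 5.67 ± 0.576 in control libraries (SD, n = 3 each).

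The question put to the comparison between genotypes is whether the Hox genes differ when Dpy30 is lost. Of the 39 genes, 8 passed the filter on low counts (edgeR's filterByExpr) and were tested in 1 fit across 16430 genes: Hoxa2, Hoxa3, Hoxa5, Hoxb2, Hoxb3, Hoxb4, Hoxb5 and Hoxd8. Hoxa2 passed it only through its knockout libraries. Hoxa3, Hoxa5, Hoxb2 and Hoxb5 needed knockout libraries as well. The filter asks for about 10 reads in as many libraries as a group holds, and each had a control library below that. By edgeR's quasi-likelihood test 0 of the 8 were called at an adjusted p below 0.05, against 9.95% of all genes tested, and 4.1% called higher in knockout. DESeq2 also called 0 of them, against 16.1% of all genes (7.31% higher in knockout), and limma-voom 0, against 9.96% (4.1% higher). At an unadjusted p below 0.05 edgeR had 2 of 8, Hoxb2 and Hoxb5, both higher in knockout, against 13.9% of all tested genes in that direction. With the replicate number as a block edgeR called 1, Hoxb2, with a log2 fold change of 1.48 and an adjusted p of 0.0439, where 14.8% of all tested genes were called and 6.93% called higher.

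**Figure D4:**
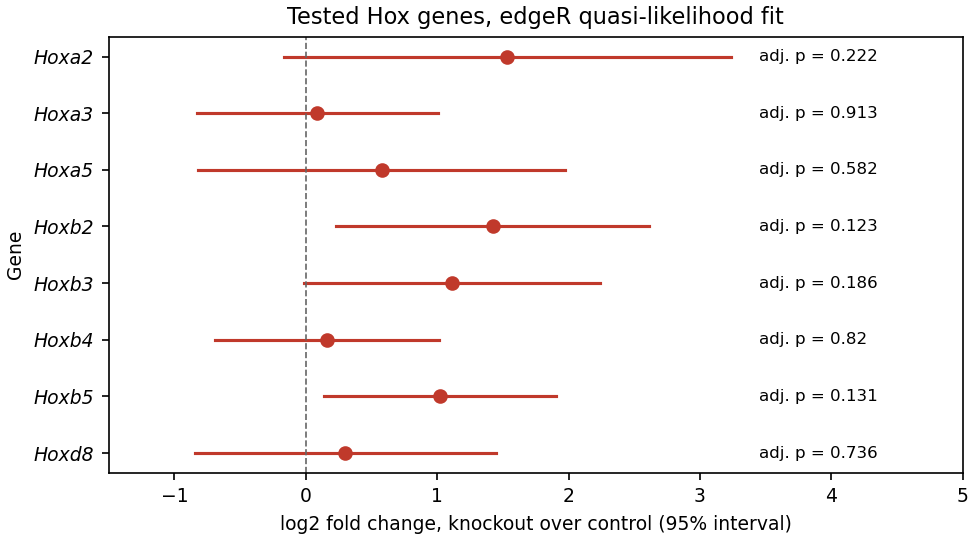
Log2 fold change of the 8 tested Hox genes, knockout over control, with its 95% interval and adjusted p from edgeR's quasi-likelihood test over 16430 genes. The intervals of Hoxb2 and Hoxb5 lie above 0 before adjustment, all others cross 0, and every adjusted p is at least 0.123.

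In the group-only edgeR fit the log2 fold change of Hoxb2 was 1.42 (SE 0.518, 95% interval 0.23 to 2.61, adjusted p = 0.123), and over all alternatives its adjusted p ran from 0.0439 to 0.313. That of Hoxb5 was 1.02 (SE 0.383, interval 0.14 to 1.91, edgeR adjusted p = 0.131), higher in 3 of 3 knockout libraries than in any control library. Hoxb3 followed at 1.11 (interval -0.01 to 2.24, edgeR adjusted p = 0.186). Hoxa2 stood at 1.53 (interval -0.17 to 3.24, edgeR adjusted p = 0.222), the widest interval of the 8, and ran from 0.97 without control replicate 2 to 2.49 without control replicate 1. The upper bound of each of these 4 intervals lies at 1.91 or above and the lower bound at 0.23 or below, so at this depth the size of the difference is barely limited.

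For Hoxb4 the log2 fold change was 0.16 (interval -0.69 to 1.01, edgeR adjusted p = 0.820) and for Hoxa3 0.09 (interval -0.83 to 1.01, edgeR adjusted p = 0.913). Hoxa5 gave 0.58 (interval -0.82 to 1.97, edgeR adjusted p = 0.582) and Hoxd8 0.30 (interval -0.84 to 1.44, edgeR adjusted p = 0.736). Hoxa5 ran from 0.091 without knockout replicate 1 to 1.497 without control replicate 1. An adjusted p above the threshold does not show that these genes were alike in the 2 genotypes. Direction depended on single libraries: without knockout replicate 3 Hoxd8 stood at -0.38, without control replicate 1 Hoxa3 stood at -0.15 and Hoxb4 at -0.027, and without knockout replicate 2 Hoxb4 stood at -0.055. All 8 point estimates were positive in the fit on all libraries, with a median of 0.80 against 0.0060 over all tested genes. This is a description, since Hoxa2 entered only through its knockout libraries. Hoxa3, Hoxa5, Hoxb2 and Hoxb5 also needed knockout libraries to enter, so passing the filter was not independent of higher knockout reads. Groups did not overlap in CPM for 2 of the 8, Hoxa2 and Hoxb5, both higher in knockout, where 17.6% of all tested genes had that arrangement.

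The tested Hox genes lay at 0.332 to 1.28 mean CPM, against a median of 16.9 CPM over all genes tested. Of the 3128 tested genes with a mean below 2 CPM, 9.94% were called by edgeR. In the authors' deposited table, 17 of the 39 Hox genes were listed, 11 had an adjusted p and 0 of these were below 0.05. The lowest adjusted p of a Hox gene in the authors' deposited table was 0.103, for Hoxb2, beside a log2 fold change of 0.73. Deposited fold changes may be on another scale than those of the edgeR fit: Hoxa2 stood at 0.18 there and at 1.53 in edgeR. Whether they were shrunk is not stated in the sources used here, so their sizes are not compared. None of the 14 silent genes was listed in the authors' deposited table.

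Summed over the 39 genes, Hox reads numbered 223, 190 and 379 in knockout and 179, 151 and 178 in control libraries. Per 1e6 reads the knockout libraries had 9.83 (95% exact Clopper-Pearson interval 8.58 to 11.2), 11.1 (9.57 to 12.8) and 15.8 (14.3 to 17.5). The control libraries had 7.10 (6.10 to 8.22), 5.96 (5.04 to 6.98) and 7.24 (6.22 to 8.39); intervals cover counting error only. Every knockout library lay above every control library, and knockout replicate 3 was the highest. The sum of TMM-scaled CPM was 11.7 ± 2.64 in knockout and 7.09 ± 0.518 in control islets (SD, n = 3 each), and that of TPM, which carry no TMM scaling, 7.12 ± 2.16 in knockout and 3.39 ± 0.524 in control islets. No p was computed for a sum over chosen members.

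The difference in the sum was uneven between clusters. Hoxb summed to 6.37 ± 2.16 CPM in knockout and 3.34 ± 0.765 CPM in control islets, Hoxa to 3.01 ± 0.530 CPM in knockout and 2.08 ± 0.992 CPM in control islets, and Hoxd to 2.10 ± 1.12 CPM in knockout and 1.53 ± 0.353 CPM in control islets. Hoxc stayed at 0.245 ± 0.109 CPM in knockout and 0.151 ± 0.166 CPM in control islets. In CPM the ranges of the groups overlapped in each cluster. In summed TPM they did not overlap in Hoxb, at 2.73, 3.13 and 5.29 in knockout replicates 1 to 3 and 1.22, 1.40 and 2.14 in control replicates 1 to 3, and overlapped in the other clusters. TPM are not scaled by TMM, and genes outside the clusters can also stand further apart in them. Ash2l, for example, averaged 58.5 CPM in knockout and 48.9 CPM in control islets, but 27.0 TPM in knockout and 19.0 TPM in control islets. The Hoxb separation seen in TPM alone is therefore a description. Within pairs of the same replicate number, Hoxb had 3.89, 7.31 and 7.90 CPM in knockout against 2.63, 3.23 and 4.15 CPM in control islets, higher in knockout in 3 of 3 pairs. Hoxa had 3.61, 2.77 and 2.63 CPM in knockout against 3.21, 1.38 and 1.64 CPM in control islets, also higher in 3 of 3. Hoxd had 1.32, 1.58 and 3.39 CPM in knockout against 1.502, 1.89 and 1.19 CPM in control islets, higher in 1 of 3. Whether the replicate numbers mark true pairs is not known, so these counts by number are a description. Between 21 and 23 Hox genes had reads in knockout libraries and between 16 and 22 in control libraries, and genes with at least 10 reads numbered 7 to 12 in knockout and 4 to 7 in control libraries.

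Some markers of other cells of the preparation were also higher in knockout islets. In bulk islets fewer cells of a type and less RNA per cell cannot be told apart. The 18 mesenchymal markers summed to 1023, 687 and 1274 CPM in knockout and 655, 423 and 751 CPM in control replicates 1 to 3, and knockout replicate 3 was highest in them as in the Hox sum. Of these, 16 were tested, 2 rose by edgeR's test (Pdgfra and Col6a1; 10 were called with the replicate block) and 0 fell. Over all tested genes edgeR called 4.1% higher, and with the block 14.8% in either direction. Nkx3-2, a marker of gut and pancreatic mesenchyme, was at 0 in every library. Pdgfra, the receptor that marks fibroblasts, had 113, 69.0 and 199 reads in knockout and 34, 21 and 29 reads in control islets. Its log2 fold change was 2.22 (SE 0.340, edgeR adjusted p = 0.00748), with all knockout libraries above all control libraries.

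The 12 endothelial markers summed to 1007 to 1306 CPM in knockout and 718 to 887 CPM in control islets; 4 of 12 rose by edgeR's test (Pecam1, Plvap, Esam and Emcn; 7 were called with the replicate block) and 0 fell, against the same shares over all tested genes. Acinar markers summed to 1929 to 10439 CPM in knockout and 647 to 2699 CPM in control islets, with 0 of 10 tested called by edgeR, DESeq2 or limma-voom (6 at an unadjusted p below 0.05 in edgeR) and the highest sum again in knockout replicate 3. The sum of the 8 mesothelial markers went the other way, at 27.9 to 45.2 CPM in knockout and 109 to 128 CPM in control islets. Only 3 of them were tested: 1, Msln, fell by edgeR's test, and 1 of the 3 had a positive log2 fold change. DESeq2 and the blocked edgeR fit each called 2, Msln and Gpm6a. Lrrn4 and Muc16 were at 0. Immune markers summed to 143 to 188 CPM in knockout and 145 to 275 CPM in control islets, where 2 of 11 rose and 1 fell. Schwann and neural markers summed to 53.6 to 80.8 CPM in knockout and 57.5 to 89.2 CPM in control islets, with 1 of 9 lower. Ductal markers summed to 385 to 433 CPM in knockout and 438 to 476 CPM in control islets, with 1 of 7 higher and 2 lower. Endocrine markers, at 113939 to 162380 CPM in knockout and 244667 to 325911 CPM in control islets, had 0 of 12 higher and 2 lower by edgeR. DESeq2 called 5 of the 12 and the blocked edgeR fit 4. Erythroid markers summed to 133 to 319 CPM in knockout and 80.4 to 287 CPM in control islets, with 0 of 5 called by edgeR, DESeq2 or limma-voom and 0 at an unadjusted p below 0.05 in edgeR. Beside these counts, edgeR called 9.95% of all tested genes, 4.1% higher, and had 13.9% higher at an unadjusted p below 0.05. The part of these cell types in the Hox values was not tested, and the libraries do not say which cells the Hox reads came from.

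**Figure D5:**
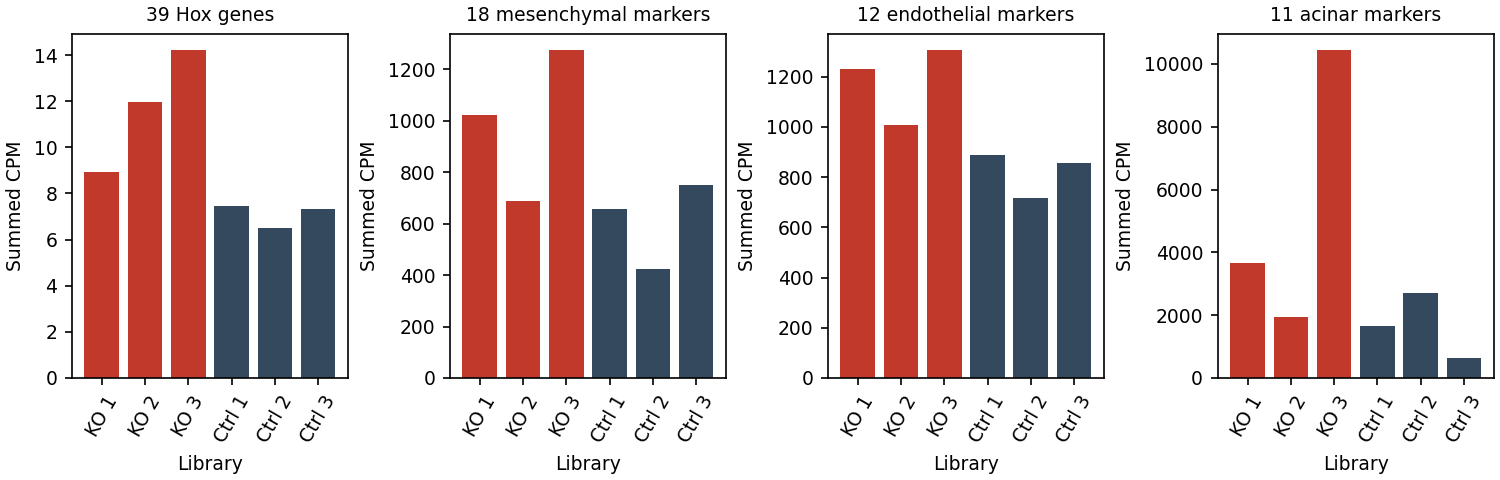
Summed CPM in each library, 3 knockout (red) left of 3 control (dark blue), of the 39 Hox genes and of the mesenchymal, endothelial and acinar marker lists, each on its own axis from 0. Knockout replicate 3 is highest in all 4 panels, at 14.2 CPM for the Hox genes and 1274 CPM for the mesenchymal markers, while the Hox sum of knockout replicate 2 (11.97 CPM) is second and its mesenchymal sum (687 CPM) is below that of control replicate 3 (751 CPM).

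The partners and neighbours of the Hox genes were far better covered. Of the 10 TALE homeodomain cofactors, which bind DNA together with Hox proteins, all were tested by edgeR and 2 rose and 1 fell, where 9.95% of all tested genes were called and 4.1% called higher. Pknox2 had 121, 68 and 121 reads in knockout and 39, 25 and 36 reads in control islets, a log2 fold change of 1.71 (SE 0.277, edgeR adjusted p = 0.00946). Meis3 rose by 1.01 on the log2 scale (edgeR adjusted p = 0.0296), to 81.0 ± 23.5 CPM in knockout against 40.2 ± 7.27 CPM in control islets, a call that was lost in 4 of 6 fits without 1 library. Pbx2 fell by 0.80 on the log2 scale (edgeR adjusted p = 0.00978), to 31.4 ± 3.47 CPM in knockout against 54.7 ± 1.37 CPM in control islets. Meis1 had a log2 fold change of -0.60 that DESeq2 and the blocked edgeR fit called and the group-only edgeR fit did not. The median of the 10 was -0.29 against 0.0060 over all tested genes.

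Of 11 genes of the trithorax side edgeR, DESeq2 and limma-voom called 0, with a median log2 fold change of -0.03. At an unadjusted p below 0.05 edgeR had 1, Kdm6a, lower in knockout. No share of all tested genes in that direction is given here. With the replicate block edgeR called 1, Kdm6b, where it called 14.8% of all tested genes. The lowest p there belonged to Kdm6a (-0.68), Ash2l (0.26), Kdm6b (-0.76) and Dpy30 itself (0.40), whose reads lie mostly in transcripts without exon 4 in knockout libraries. With an offset for transcript length Dpy30 stood at 0.99 and was called (edgeR adjusted p = 0.0296), and its level was 116 TPM in knockout and 48.9 TPM in control islets. Of 25 Polycomb-side genes 0 rose and 1 fell, a smaller share than the 9.95% called over all tested genes. The 1 was the CpG-binding demethylase Kdm2b at -0.88 (edgeR adjusted p = 0.0125, and 0.0564 without knockout replicate 3), with a median of -0.22. Kdm2b averaged 32.8 ± 1.07 CPM in knockout and 60.4 ± 10.8 CPM in control islets. Of 13 tested genes of retinoic acid signalling, the pathway that induces anterior Hox genes in embryos, edgeR and limma-voom called 0 and DESeq2 called 2, Rxra among them, and the blocked edgeR fit called 1 (Rxra, adjusted p = 0.0425), with 5 at an unadjusted p below 0.05 in edgeR and a median of 0.36. Over all tested genes DESeq2 called 16.1%, the blocked edgeR fit 14.8%, and edgeR had 13.9% higher at an unadjusted p below 0.05. The 13.9% covers genes higher in knockout only. The 5 genes of this pathway were counted in either direction, so their share cannot be set against it. Rxra stood at -0.65, Aldh1a1 at 0.96 and Aldh1a3 at 1.21.

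Of 8 tested genes that flank the clusters edgeR and limma-voom called 0 and DESeq2 called 1 (Skap1), with 3 at an unadjusted p below 0.05 in edgeR. Skap1 was also called by edgeR with the replicate block (adjusted p = 0.0381), with DESeq2's size factors (0.0494) and with the CPM filter (0.0498). Over all tested genes DESeq2 called 16.1%, the blocked edgeR fit 14.8%, and edgeR had 13.9% higher at an unadjusted p below 0.05. The 13.9% covers genes higher in knockout only. The 3 flanking genes were counted in either direction, so their share cannot be set against it. Skap1, beside the Hoxb cluster, had a log2 fold change of -0.50, at 40.1 ± 3.41 CPM in knockout and 56.8 ± 4.99 CPM in control islets. Per length it stood at 36.1 TPM in knockout and 40.9 TPM in control islets, beside a cluster whose highest gene averaged 1.20 TPM in knockout islets. Cbx5 beside Hoxc stood at -0.48, Mtx2 beside Hoxd at 0.38, and Calcoco1 at -0.48. Ttll6, the untested neighbour, averaged 0.0206 TPM in knockout islets and 0 in control islets. Of 19 noncoding genes inside the clusters 11 were at 0 in every library, among them Hotair and Hottip, and 0 passed the filter. The best covered were Hoxb3os, with 4, 4.04 and 9 reads in knockout and 6, 3 and 4 reads in control islets, and Hoxd3os1, with 8, 3 and 7 reads in knockout and 9, 1 and 1 reads in control islets.

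Among the homeobox relatives of the clusters, the ParaHox and Evx genes, 2 of 8 were tested and 1 was called, where edgeR called 9.95% of all tested genes. Cdx4, which acts upstream of posterior Hox genes in mouse embryos, had 1, 3 and 5 reads in knockout and 43, 58 and 44 reads in control islets. It averaged 0.139 ± 0.086 CPM in knockout and 2.03 ± 0.403 CPM in control islets, and fell by 3.86 on the log2 scale (SE 0.501, edgeR adjusted p = 0.00436), with no overlap of the groups. In each of the 14 alternative fits Cdx4 stayed lower and called. Pdx1, the ParaHox gene of beta cells, was at 126 ± 20.7 CPM in knockout and 157 ± 29.2 CPM in control islets, with a log2 fold change of -0.31 that was not called (edgeR adjusted p = 0.333). Cdx1, Gsx1, Gsx2 and Evx2 were at 0 in every library.

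Salmon divides reads that match several transcripts by estimate, so shared sequence bears on single-gene values. Of 86 measured Hox transcripts 41 had reads, and 0.489% of Hox reads lay in transcripts that share exonic bases with another Hox gene (Hoxd3 with Hoxd4, Hoxc5 with Hoxc10). Stretches of 31 bases shared with another Hox gene covered at most 12.1% of a detected gene, the highest being Hoxd4. Hoxb2 and Hoxb5 shared none. The sources used here do not say whether the estimation used strand, so reads of a Hox gene and of an overlapping antisense gene cannot be told apart.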

How the data were processed

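Each library is 1 mouse, per the labels' protocols; RNA was poly(A)-selected from 1000 ng of total RNA and amplified over 9 cycles. Trimmomatic, Salmon, DESeq2 and the builds GRCm38 and mm10 are named in the submitters' processing notes, and versions and settings do not appear in the sources used here. The authors deposited Salmon tables of estimated counts (expected counts) and TPM per transcript, per the file headers. Their deposited table of scaled counts per gene, a signal unit, was checked for which Hox genes it lists and otherwise not used. Their deposited comparison holds log2 fold changes with p-values and adjusted p-values, per the file headers; its column of mean signal was not used.

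Transcripts were summed to genes of GENCODE vM21 (139852 of 140948 identifiers matched, 99.6 to 99.7% of reads) and rounded to whole counts. Genes passing filterByExpr (minimum count 10) were scaled by TMM and tested in edgeR 4.0.16 (R 4.3.3) by the quasi-likelihood test, two-sided, group as the only term, with Benjamini-Hochberg adjustment over 16430 genes and a threshold of 0.05. The SE is the fold change over the root of F, and the common biological coefficient of variation was 0.26. DESeq2 1.42.0, limma-voom 3.58.1, other filters, a length offset, leaving out Gm42418, leaving out each library and a replicate block were alternatives. Silent, trace and detected were defined by reads, and intervals of shares are exact Clopper-Pearson. Promoters are RefSeq's on GRCm38.p6.

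Named were all Hox genes and, of each list, up to 4 genes of smallest p and those called; marker lists are given as sums. Some genes that this takes are counted in totals but not reported here by name. The members and lists were chosen with earlier results of these data known. Replicate numbers are shared by the groups in the labels, which do not say what a number marks. Deviations from group means correlated at 0.427, 0.135 and 0.196 between same-numbered libraries. As each exceeds 0.1, the numbers served as a block in an alternative fit and to set libraries side by side. The main fit has group as its only term. Between libraries with unlike numbers the correlation lay between -0.318 and 0.140. Knockout replicate 2 stood at 0.140 with control replicate 3, against 0.135 with control replicate 2. The limit of 0.1 thus does not separate same-numbered libraries from the others, and whether the numbers mark true pairs is not known. The p-values measure the spread between these mice.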

Additional observations from a re-analysis of the deposited data

How the results depend on the processing

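The number of Hox genes called was 0 in the group-only edgeR fit and in 13 of the 14 alternatives, and 1 (Hoxb2) with the replicate block; over all tested genes the block called 2430 and DESeq2's Wald test 2633, against 1634, and leaving out 1 library called 737 to 1330. The block changed no other Hox call. Demanding any read in 2 libraries in place of the count minimum brought 23 Hox genes into the fit, against 8, and leaving out 1 library brought in 8 to 10; Hoxa2 and Hoxa3 had no value under the CPM filter. Of 110 pairs of a tested Hox gene and an alternative, 105 kept the direction and the side of the threshold. The exceptions were Hoxb2 with the block and 4 changes of sign, each in a fit without 1 library. Over such fits Hoxa3 ran from -0.15 (without control replicate 1) to 0.33, Hoxb4 from -0.055 (without knockout replicate 2; -0.027 without control replicate 1) to 0.38, and Hoxd8 from -0.38 (without knockout replicate 3) to 0.58. Detected genes numbered 13 with 5 reads in 3 libraries, 4 with 20 reads in 3 libraries, 3 with 10 reads in every library and 3 with 0.5 TPM in 3 libraries, against 8, and 7 to 8 without 1 library (chosen after seeing the data). Silent genes numbered 19 when fewer than 3 reads in every library counted as silent, against 14, and 14 to 15 without 1 library. Of 308 pairs of an alternative and 1 of 22 other named genes, 292 kept direction and call, 5 lost a call (Kdm2b and Meis3, each without 1 library), 11 gained one and 0 changed direction. Why settings differ was not tested. Depth limits every Hox value: a 0 allows up to 3 reads, and no Hox gene exceeded 60 reads in a library.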
